A study of Mus musculus with 12 samples.

Results

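Interferon-stimulated genes were measured in the aorta of mice, unchallenged or in an early phase of a model of aortic dissection, with 12 one-colour microarrays. The set held 35 genes, chosen by name among textbook targets of interferon, and each was taken from the probes that carried its name in the scanner output. All 35 were on the array and were among the 22755 genes tested. The set had 46 probes, of which 42 were kept, and 24 of the genes had 1 probe only. Of the 35 genes, 32 were well above background on all 12 arrays. The other 3 were Oas3, which was well above background only on the 3 arrays of the smSocs3-KO mice at day 3, Mx1 and Ifi44.

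There were 4 groups with 3 arrays in each. All mice were male, carried the floxed allele of Socs3 on both chromosomes (Socs3fl/fl) and had a mixed background given as 129S5/SvEvBrd, C57BL6 and SJL. Mice labelled smSocs3-KO also carried SM22-Cre, a Cre transgene driven by a promoter active in smooth muscle, so that the deletion is aimed at smooth muscle cells, while the whole tissue was measured. Littermates without the transgene served as wild type (WT). In both genotypes, arrays came from mice without infusion, called before challenge here, and from mice at day 3 of the combined infusion of BAPN at 150 mg/kg/day, an inhibitor of the cross-linking of collagen and elastin, and angiotensin II (AngII) at 1000 ng/kg/min. The paper that used these data combined them with other series. For its own animal experiments it gives an age of 11 to 14 weeks and a stretch of aorta above the right renal artery. The paper does not say whether both hold for the mice of these arrays. It describes day 3 of this infusion as a time before dissection develops. The labels do not say whether the 3 arrays of a group came from separate mice, so the p-values measure only the spread between these arrays.

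Interferons are secreted proteins, and those of type I and type III are released by cells that sense foreign or misplaced nucleic acid. Type I and type III interferons activate a complex with STAT2 and IRF9 that binds a motif called the interferon-stimulated response element, and type II interferon acts through a motif called the gamma-activated site. The genes switched on in this way encode enzymes that degrade viral RNA, GTPases, nucleic acid sensors, and parts of the antigen-processing machinery. SOCS proteins are feedback inhibitors of cytokine receptors: SOCS1 is the main one for interferon receptors, and SOCS3, the gene targeted here, mainly acts on receptors of the interleukin-6 family.

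The level of a gene is given as log2 of its processed signal minus the 75th percentile of its array, so that 0 is the level of the probe at that percentile, and a difference of 1 is a doubling. Levels were not compared between genes, since probes differ in brightness. Between 55.4% and 61.2% of the spots on an array were well above background, and no probe of the set was saturated. All 7 smooth muscle markers, Myh11 and Acta2 among them, were well above background on all 12 arrays, as the tissue label requires. Socs3 itself did not follow the genotype label. Its level was 0.30, 0.32 and 0.75 on the WT arrays before challenge and 0.24, 1.14 and 1.46 on the unchallenged smSocs3-KO arrays. By day 3 its level was 2.21, 2.30 and 0.64 in WT and 3.31, 2.28 and 4.13 in smSocs3-KO. Whether its probe lies in the deleted part of the gene is not given in the sources used here, so genotype below means the label. The arrays were on 2 slides. Slide 1 held the 6 WT arrays and smSocs3-KO array 1 before challenge, and slide 2 held the other 5 smSocs3-KO arrays, so at day 3 genotype and slide coincided.

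The promoters of the genes with the largest differences are shown because the response elements lie there. RefSeq promoter windows were at hand for 26 of the 35 genes. Searched over the 250 bases before the start, on both strands, the letters GAAANN followed directly by GAAA, a core of the interferon-stimulated response element called the double GAAA here, were found in 11 of these 26 genes (Ifit1, Ifit3, Oas1a, Oas3, Rsad2, Isg15, Gbp2, Gbp3, Irgm1, Igtp and Bst2) and in 3.46% of all 27025 mouse genes with a window of that length (2.98% of all 32851 windows). The letters TTCNNNGAA, a form of the gamma-activated site, were found in 6 of the 26 (Ifit2, Oas1a, Irf1, Igtp, Psmb8 and Bst2) and in 8.13% of all these genes (7.02% of windows). The 160 bases before the start are printed for the 8 genes that had a window and ranked first, 5′ to 3′ on the strand of the gene, on build GRCm38.p6. Capitals mark the double GAAA or TTCNNNGAA on either strand, where neighbouring matches may overlap and then run together.
Oas3 (chr5:120777660-120777819, minus strand): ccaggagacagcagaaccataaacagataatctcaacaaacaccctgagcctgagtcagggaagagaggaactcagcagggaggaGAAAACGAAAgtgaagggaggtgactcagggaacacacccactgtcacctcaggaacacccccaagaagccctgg
Isg15 (chr4:156200819-156200978, minus strand): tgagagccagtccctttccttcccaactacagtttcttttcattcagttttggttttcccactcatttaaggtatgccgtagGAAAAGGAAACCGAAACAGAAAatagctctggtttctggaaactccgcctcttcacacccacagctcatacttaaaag
Oasl1 (chr5:114923080-114923239, plus strand): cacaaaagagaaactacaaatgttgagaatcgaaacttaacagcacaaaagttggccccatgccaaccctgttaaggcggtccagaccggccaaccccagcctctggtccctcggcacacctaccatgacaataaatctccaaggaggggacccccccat
Rsad2 (chr12:26456453-26456612, minus strand): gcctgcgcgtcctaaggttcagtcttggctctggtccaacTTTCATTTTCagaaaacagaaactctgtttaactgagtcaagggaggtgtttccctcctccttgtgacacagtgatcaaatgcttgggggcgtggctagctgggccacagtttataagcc
Ifit3 (chr19:34583369-34583528, plus strand): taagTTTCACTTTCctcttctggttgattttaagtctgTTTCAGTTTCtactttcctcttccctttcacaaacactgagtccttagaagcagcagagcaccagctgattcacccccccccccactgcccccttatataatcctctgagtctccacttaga
Ifi44 (chr3:151749911-151750070, minus strand): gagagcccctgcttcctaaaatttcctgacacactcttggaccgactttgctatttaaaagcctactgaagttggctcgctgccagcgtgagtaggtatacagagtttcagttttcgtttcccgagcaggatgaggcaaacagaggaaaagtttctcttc
Ifit1 (chr19:34640729-34640888, plus strand): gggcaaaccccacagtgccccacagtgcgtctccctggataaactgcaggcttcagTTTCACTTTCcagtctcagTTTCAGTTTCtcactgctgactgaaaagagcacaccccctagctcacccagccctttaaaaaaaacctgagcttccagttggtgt
Oas1a (chr5:120907526-120907685, minus strand): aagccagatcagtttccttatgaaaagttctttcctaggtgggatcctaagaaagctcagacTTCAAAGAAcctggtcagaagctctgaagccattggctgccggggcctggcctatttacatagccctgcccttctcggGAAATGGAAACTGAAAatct
Isg15 had 3 overlapping copies of the double GAAA in this window and Oas3 and Rsad2 had 1 each. Ifit1 and Ifit3 had 2 copies each, both on the opposite strand, while their neighbour Ifit2 on chromosome 19 had none in its 250 bases. Oas1a was the only one of the 8 with a copy of TTCNNNGAA. No copy of either was found for Oasl1 or Ifi44 in these letters and this window.

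The set was highest on the smSocs3-KO arrays at day 3. The mean over the 35 genes, on the log2 scale and relative to the WT arrays before challenge, was 0.00 ± 0.46 (SD, n = 3) in WT before challenge, 0.70 ± 0.71 in WT at day 3, 0.53 ± 0.42 in smSocs3-KO before challenge and 1.76 ± 0.59 in smSocs3-KO at day 3. The arrays of a group differed from each other by nearly as much as the groups did. Within WT at day 3, arrays 1 and 3 stood at 1.14 and 1.07 while array 4 stood at -0.12, at the level of the unchallenged arrays. Within smSocs3-KO before challenge, array 1, the one on slide 1, stood at 0.06 and arrays 3 and 4 on slide 2 stood at 0.66 and 0.88. The smSocs3-KO arrays at day 3 stood at 1.21, 2.38 and 1.70, all above every other array.

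**Figure D1:**
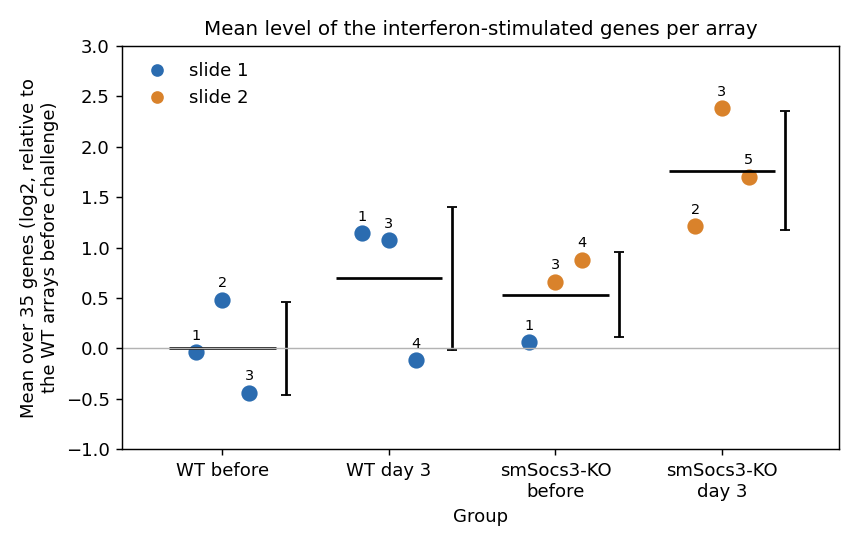
Mean over the 35 interferon-stimulated genes on each array, on the log2 scale relative to the mean of the WT arrays before challenge; points are arrays with their replicate numbers, coloured by slide, lines are group means and bars are SD (n = 3). WT array 4 at day 3 sits at -0.12 among the unchallenged arrays, and the 3 smSocs3-KO arrays at day 3 sit between 1.21 and 2.38.

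The genes of the set moved together from array to array within a group. WT array 4 was the lowest of its group for 32 of the 35 genes, against 40.3% of all genes tested. smSocs3-KO array 1 before challenge was the lowest of its group for 33 genes, against 44.5% of all genes. smSocs3-KO array 3 at day 3 was the highest of its group for 31 genes, against 35.3% of all genes. Among the unchallenged WT arrays, array 2 was the highest for 28 genes, against 25.1% of all genes, and array 3 the lowest for 27, against 34.1%.

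**Figure D2:**
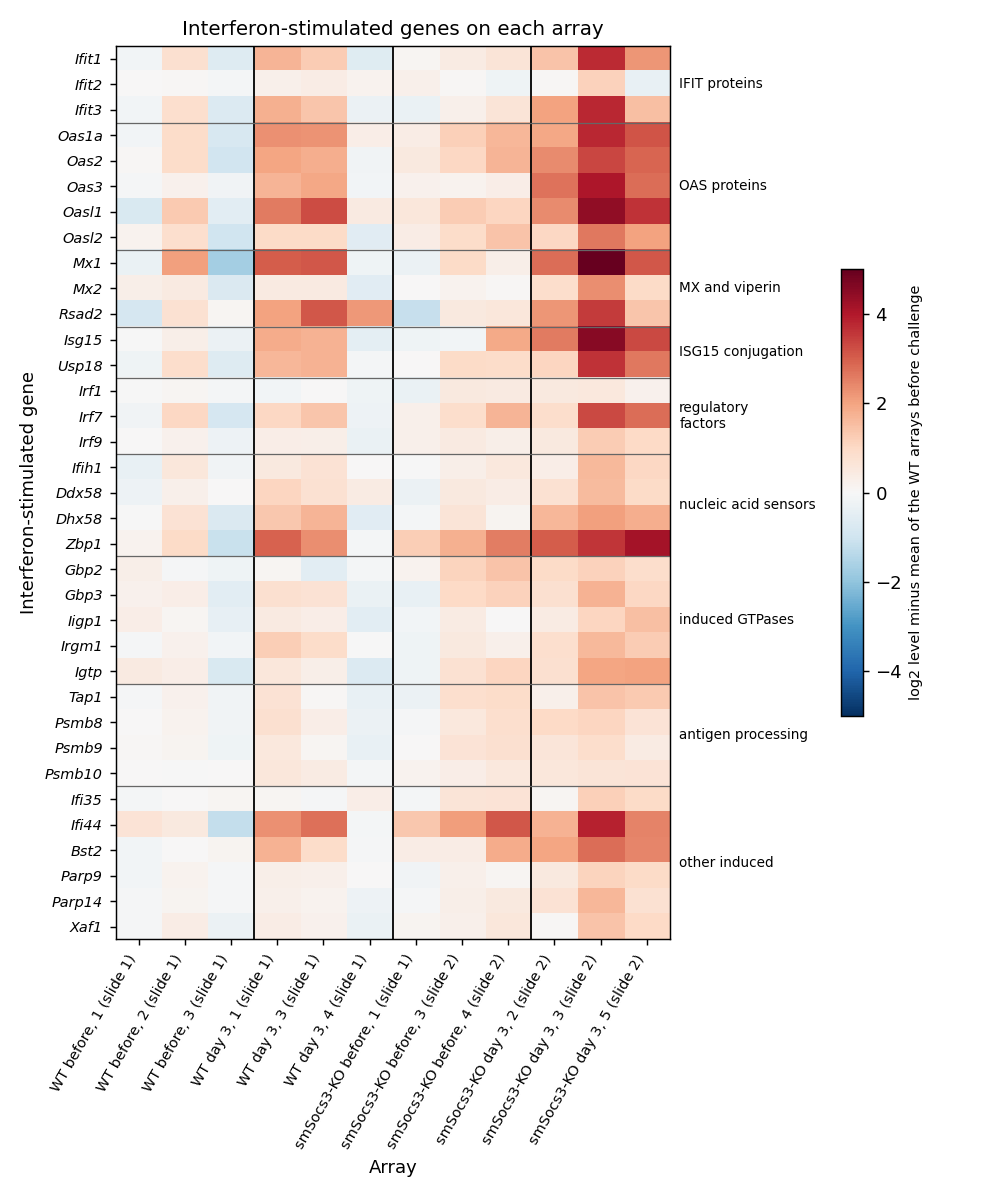
Level of each of the 35 genes (rows, grouped by role) on each of the 12 arrays (columns, named by group and replicate number with their slide), as log2 level minus the mean of the WT arrays before challenge. WT array 4 at day 3 stays near 0 for most genes but not for Rsad2, and smSocs3-KO array 3 at day 3 is the darkest column, being the highest of its group for 31 of the 35 genes.

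Some other features of these arrays moved with the set, but not in every group. The summed signal of 3 leukocyte markers (Ptprc, Coro1a and Laptm5, with 1 being the 75th percentile of the array) was 4.23 to 5.69 in WT before challenge and 5.38 to 6.56 in smSocs3-KO before challenge. The day 3 values were 18.6, 14.1 and 5.09 on WT arrays 1, 3 and 4 and 30.3, 14.6 and 16 on smSocs3-KO arrays 2, 3 and 5. Among these smSocs3-KO arrays, array 2 had the highest leukocyte signal but the lowest mean of the set, 1.21. Array 3 had the lowest leukocyte signal and the highest mean of the set, 2.38. WT array 4 therefore carried no more signal of these 3 markers than the unchallenged arrays. This did not hold for neutrophil markers, of which only 4 of 8 passed the background criterion on every array. Their mean log2 level, with WT before challenge as 0, was 1.24 on WT array 4. It was 0.07 and 0.51 on WT arrays 1 and 3 at day 3 and -0.27 to 0.66 on the unchallenged arrays. Their summed signal on WT array 4, 220, lay within the 189 to 415 of the unchallenged arrays, but this sum was nearly all Csf3r (log2 level 7.75 on that array). On array 4, S100a8 and S100a9 stood at -0.71 and 1.32, above arrays 1 and 3. Ly6g stood at 0.39, below the 0.56 and 0.83 of those 2 arrays. The signal of 8 proliferation markers on WT array 4, 9.09, was below the 69 and 64.7 of the other WT arrays at day 3. It was within the 8.57 to 27.8 of smSocs3-KO at day 3 and above the 2.07 to 2.91 of the unchallenged arrays. All 3 leukocyte and all 10 measured macrophage markers were well above background on every array. The mean log2 level of the macrophage markers, relative to WT before challenge, was 1.58, 1.09 and 0.1 on WT arrays 1, 3 and 4 at day 3. It was 1.53 to 1.65 in smSocs3-KO at day 3 and -0.03 to 0.53 on the unchallenged arrays. Cd68, C1qa, Mrc1 and Cd14 rose in smSocs3-KO, by 2.16, 1.95, 1.69 and 1.67 (adjusted p = 0.0379, 0.0379, 0.04 and 0.0408, limma). No other macrophage marker passed that test there, none did in WT, and Itgam had -0.5. Of 4 NK cell markers, Ncr1, Klrb1c and Klre1 were well above background on no array and Eomes on 5. The summed signal of the 7 T cell markers was 3.99 to 5.76 in WT and 3.29 to 5.16 in smSocs3-KO at day 3, overlapping with 4.66 to 7.6 and 4.42 to 6.52 before challenge. Their mean log2 level, relative to WT before challenge, was -1.29, -0.81 and -1.67 in WT at day 3, below all unchallenged WT arrays (-0.47 to 0.57), and -1.08, -0.05 and -1.33 in smSocs3-KO at day 3, where the groups overlapped (-0.69 to 0.05 before challenge). Cd3g and Cd3d fell in WT, by 1.97 and 2.52 on the log2 scale (adjusted p = 0.0351 and 0.0334, limma). Of the other T cell markers, Lck had -1.81, not past the adjusted test, and Cd3e, Cd4 and Cd2 were flat, at 0.04, 0.03 and 0.14. Cd8a was not among the genes tested. The part of these cells in the levels of the set was not tested, and in whole tissue a change in the number of cells of a type and a change in RNA per cell cannot be told apart.

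The challenge response in WT mice, day 3 minus before challenge, was above 0 for 33 of the 35 genes, with a median log2 difference of 0.43 (quartiles 0.11 and 1.07). Across all genes tested the median was -0.02 and 48.4% were above 0. None of the 35 genes passed an adjusted p under 0.05 (limma, Benjamini-Hochberg over all genes), while 3.58% of all genes passed it upward. At an unadjusted p under 0.05, 6 genes were higher at day 3 (Oas1a, Oas3, Oasl1, Rsad2, Ddx58 and Zbp1), or 17.1% of the set, beside 15.9% of all genes, so the share in the set was near the background. Oas3 was not well above background on any WT array. Only 3 genes, Rsad2, Ddx58 and Ifit2, had all 3 day 3 arrays above all 3 unchallenged arrays, against 20.7% of all genes.

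These values rested on array 4 more than on any other. Without it, the median over the set was 0.92 and 9 of the 35 genes passed the adjusted test upward, beside 9.96% of all genes: Dhx58, Ifi44, Irgm1, Oas1a, Oas2, Oas3, Oasl1, Rsad2 and Zbp1. Oas3 and Ifi44 entered the test only through smSocs3-KO arrays, so they carry no weight in the counts made without array 4. The threshold of the paper's methods (an unadjusted p under 0.01 with a fold above 4) was passed by Rsad2 alone, beside 1.11% of all genes, by 5 genes without array 4, by 2 without WT array 2 before challenge, and by none without WT array 1 before challenge or array 3 at day 3. The median was 0.24 without WT array 3 at day 3, 0.29 without WT array 3 before challenge and 0.81 without WT array 2 before challenge, and without smSocs3-KO array 1 before challenge, which only changes the estimate of the spread, Rsad2 alone was called.

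In the mice labelled smSocs3-KO, the challenge response was above 0 for all 35 genes, with a median log2 difference of 0.97 (quartiles 0.51 and 1.8), against a median of -0.06 and 44.6% above 0 over all genes. None of the 32 genes that were well above background on all arrays passed the adjusted test, where 1.71% of all genes passed it upward. Oas3 did (adjusted p = 0.0223, limma), but it entered the test only through the smSocs3-KO arrays at day 3, where it was high, so its call is not counted as a result of the set. With Oas3 included, the threshold of the methods was passed by 6 genes (Ifit3, Oas3, Oasl1, Mx1, Rsad2 and Isg15), or 17.1% of the set, beside 1.44% of all genes. That count was 1 without smSocs3-KO array 1 before challenge or array 3 at day 3, 2 without array 3 before challenge, and 9 without array 2 at day 3. All 3 day 3 arrays were above all 3 unchallenged ones for 21 genes, or 60% of the set, beside 14.1% of all genes, and 20 genes had an unadjusted p under 0.05, beside 12.8%. Mx1, like Oas3, entered the test only through day 3 arrays, where it was high. The places of both in the counts of 6, 21 and 20 genes carry no weight. The call of Oas3 was lost without smSocs3-KO array 1 or 3 before challenge or array 5 at day 3. There were 2 calls without array 2 at day 3, 3 without array 4 before challenge, and 11 without WT array 4, which is not part of this comparison but widens the estimate of the spread. In that last fit 5.56% of all genes were called upward, and Oas3 and Mx1 were among the 11. Within slide 2 alone, 32 of the 35 genes were above 0, with a median of 0.7.

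**Figure D3:**
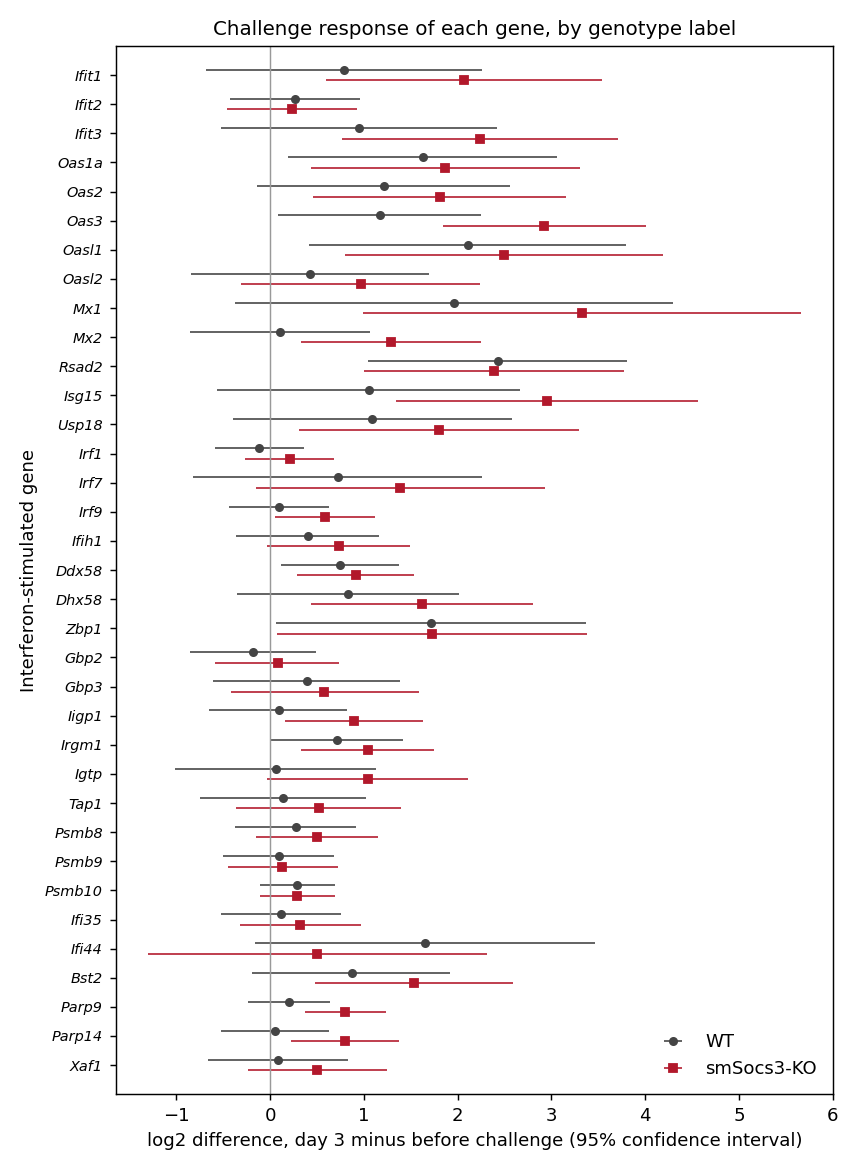
Log2 difference between day 3 and before challenge for each of the 35 genes, in WT (grey circles) and in mice labelled smSocs3-KO (red squares), with 95% confidence intervals from the fit over 12 arrays; values of Oas3, Mx1 and Ifi44 include arrays not well above background. The smSocs3-KO values are all above 0, from 0.08 to 3.33, the WT values run from -0.18 to 2.43, and the intervals of the 2 genotypes overlap for every gene.

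The difference between the 2 responses was itself tested. The smSocs3-KO response exceeded the WT response for 32 of the 35 genes, against 44% of all genes, with a median excess of 0.42. No gene of the set passed the adjusted test of this interaction (lowest adjusted p = 0.921, limma), nor did any gene of the array. At an unadjusted p under 0.05 there was none among the 32 genes well above background on all arrays, beside 2.68% of all genes. Oas3 was under it, with 3 of its 4 groups not above background. Without WT array 4 the median excess was 0.14 and 22 genes were above 0. It was 0.17 and 0.79 without smSocs3-KO arrays 3 and 2 at day 3, 0.27 without smSocs3-KO array 1 before challenge, 0.23 without WT array 2 before challenge and 0.64 without WT array 1 at day 3.

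Before challenge, the level under the smSocs3-KO label exceeded that in WT for 34 of the 35 genes, with a median log2 difference of 0.37, against 50.6% above 0 and a median of 0 over all genes. No gene passed the adjusted test (lowest adjusted p = 0.97, limma), beside 0.0264% of all genes passing it upward. Gbp2, Zbp1 and Ifi44 had an unadjusted p under 0.05, beside 1.89% of all genes, and 5 genes did not overlap between the groups (Irf9, Zbp1, Psmb10, Ifi44 and Bst2), beside 6.48%. Ifi44 entered the test only through the smSocs3-KO groups, so its place in these counts carries no weight. The median was 0.62 without smSocs3-KO array 1, 0.59 without WT array 2 and 0.22 without WT array 3. Without WT array 4 at day 3 there was 1 gene past the threshold of the methods, which was again Ifi44, against 0 with it. The difference lay in the 2 smSocs3-KO arrays of slide 2. With slide as a term of the fit, which compares the WT arrays with smSocs3-KO array 1 on the same slide, 18 of the 35 genes were above 0 and the median was 0. Within slide 1 alone the count was also 18. Zbp1 and Ifi44 kept the largest values with slide as a term, at 1.22 and 1.35, with adjusted p-values of 0.745 and 0.735.

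At day 3, the level under the smSocs3-KO label exceeded that in WT for 34 of the 35 genes, against 40.4% of all genes, with a median log2 difference of 1.02. No gene passed the adjusted test (lowest adjusted p = 0.0824, for Oas3, limma), beside 0.958% of all genes passing it upward. The threshold of the methods was passed by Isg15 and by Oas3, which was not above background in WT, beside 0.984% of all genes. An unadjusted p under 0.05 was reached by 18 genes, or 51.4% of the set, beside 7.77% of all genes, and 14 genes did not overlap between the groups, beside 7.86%. Oas3 is in both counts but entered the test only through smSocs3-KO at day 3, so its place there carries no weight. With slide as a term, which can only be estimated here through the unchallenged smSocs3-KO arrays, the median was 0.43 and 25 genes were above 0. Without WT array 4 the median was 0.61, with neither threshold passed by any gene. The threshold of the methods was passed by 4 genes without smSocs3-KO array 2 at day 3, by none without array 3, and by 1 without array 5 or without WT array 1 before challenge. Without smSocs3-KO array 1 before challenge Gbp2 was called (adjusted p = 0.03). The 2 genotype comparisons share no arrays with each other, but each shares arrays with the challenge responses. The summed signal of 4 mesothelial markers, of which 3 were well above background on all arrays, also differed by genotype label, with 3.57 to 21 and 2.49 to 12.9 in WT before challenge and at day 3 against 25.2 to 57.4 and 27.9 to 36.7 in smSocs3-KO. The part of mesothelial cells in the levels of the set was not tested.

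**Figure D4:**
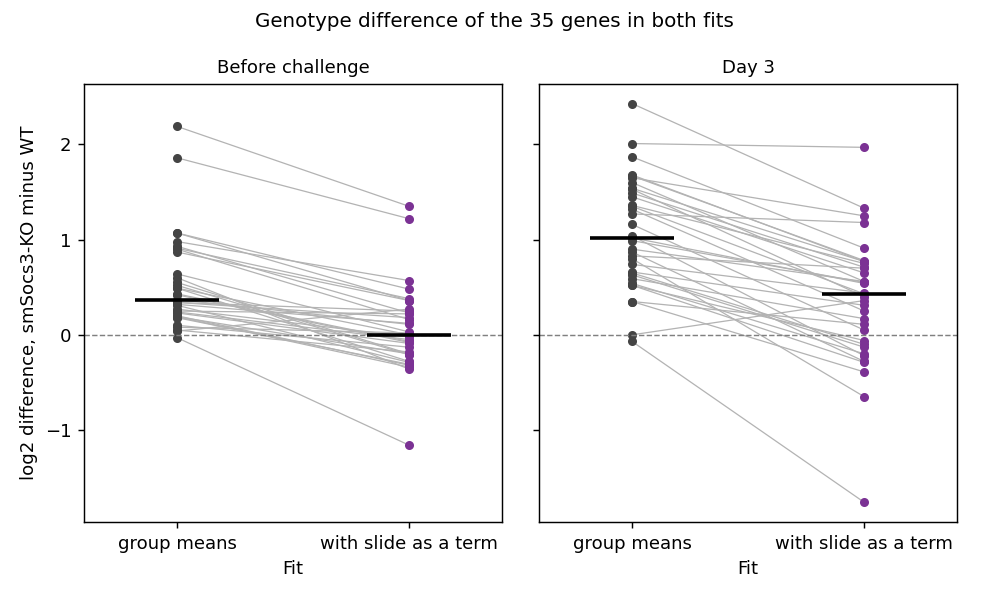
Log2 difference between smSocs3-KO and WT for the 35 genes before challenge (left) and at day 3 (right), from the fit of 4 group means and from the fit with slide as a term; points are genes, grey lines join the same gene and black bars are medians. The median goes from 0.37 to 0 before challenge and from 1.02 to 0.43 at day 3 once slide is a term.

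The OAS genes, which encode the enzymes whose product activates RNase L against viral RNA and their relatives, had challenge differences above 0 in both genotypes. Leaving out Oas3, which was dim, they ran from 0.43 to 2.11 in WT and from 0.97 to 2.49 in smSocs3-KO, the lower end in both being Oasl2, at the median of the set. The mean of the 5 OAS genes, Oas3 included, was 1.31 ± 1.15 (SD, n = 3) in WT at day 3, 0.86 ± 0.43 in smSocs3-KO before challenge and 2.87 ± 0.79 in smSocs3-KO at day 3, on the log2 scale relative to WT before challenge. The probe of Oas3 lies at chr5:121203598-121203657 on the minus strand (mm9, as the array files give it). Its level was -6.18, -5.93 and -6.29 in WT before challenge and -4.45, -4.21 and -6.25 in WT at day 3. It was -5.91, -5.94 and -5.79 in smSocs3-KO before challenge and -3.43, -2.10 and -3.35 at day 3. Only the last group lay above background, and it did not overlap with any other group.

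Since the other groups were not well above background, only a bound can be given for Oas3: it was at least 2.91-fold higher at day 3 than before challenge in smSocs3-KO (adjusted p = 0.0223, limma) and at least 2.44-fold higher in smSocs3-KO than in WT at day 3 (adjusted p = 0.0824), these folds being the bright group's mean against the lowest signal well above background on each dim array or the probe's own signal, whichever was higher. No fold is given for WT. The fitted log2 difference in smSocs3-KO is no measure of size, since it rests on signals at background: it ran from 0.65 (adjusted p = 0.0361), after another background correction, normexp, to 3.19. The adjusted p was under 0.05 in 17 of 23 alternatives, and Oas3 was not tested with probes well above background on all arrays. With slide as a term its adjusted p was 0.0751.

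Oasl1, an OAS-like protein without the enzyme's activity, ran from -3.00 to -0.96 in WT before challenge and stood at 0.36, 1.01 and -1.79 in WT at day 3. In smSocs3-KO it stood at -1.68, -0.98 and -1.16 before challenge and at 0.11, 2.20 and 1.36 at day 3. The WT groups overlapped through array 4 and the smSocs3-KO groups did not overlap. Its log2 difference was 2.11 (SE 0.77, adjusted p = 0.116) in WT and 2.49 (SE 0.77, adjusted p = 0.0972) in smSocs3-KO by limma. Oas1a, Oas2 and Oasl2 had differences of 1.63, 1.21 and 0.43 in WT and 1.87, 1.81 and 0.97 in smSocs3-KO, none of them past the adjusted test. Oas1a, Oas2 and Oas3 are neighbours on chromosome 5, and Oasl1 and Oasl2 are neighbours elsewhere on it.

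Mx1 and Mx2 are GTPases that trap viral particles, and Rsad2 encodes viperin, an enzyme that makes a chain-terminating nucleotide. The probe of Mx1 lies at chr16:97668644-97668703 and that of Rsad2 at chr12:27127859-27127918, both on the minus strand (mm9). Mx1 stood at -4.26, -1.89 and -5.63 in WT before challenge and at -0.91, -0.82 and -4.16 at day 3. On the smSocs3-KO arrays it stood at -4.22, -2.97 and -3.65 before challenge and at -1.12, 1.07 and -0.81 at day 3. It was well above background on 1 of 3 WT arrays and 2 of 3 smSocs3-KO arrays before challenge and on all arrays at day 3. Its smSocs3-KO response was 3.33 (SE 1.06, 95% confidence interval 0.99 to 5.66, adjusted p = 0.104, limma), with no overlap between the groups, and 1.99 after normexp background correction with quantile normalization. Its WT groups overlapped, with a difference of 1.96 and an interval of -0.37 to 4.3.

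Rsad2 was one of 4 genes, with Ddx58, Ifit2 and Ifi35, for which WT array 4 at day 3 lay above all unchallenged WT arrays. Its level was -3.36, -1.76 and -2.40 in WT before challenge and -0.49, 0.60 and -0.35 at day 3, with array 4 being the -0.35. In smSocs3-KO it was -3.67, -2.01 and -1.95 before challenge and -0.32, 0.98 and -1.12 at day 3. Neither pair of groups overlapped. The WT response was 2.43 (SE 0.63, 95% confidence interval 1.04 to 3.81) and the smSocs3-KO response 2.39 (SE 0.63, interval 1 to 3.77), with adjusted p-values of 0.0521 and 0.0677 by limma. The WT response was called under 6 of 23 alternatives. The difference between the 2 responses was -0.04, with an interval of -2 to 1.92, and the genotype difference was -0.03 before challenge and -0.07 at day 3. Mx2 differed by 0.11 in WT and 1.29 in smSocs3-KO (adjusted p = 0.894 and 0.119), with a genotype difference at day 3 of 1.27 (adjusted p = 0.196) in which the groups did not overlap.

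**Figure D5:**
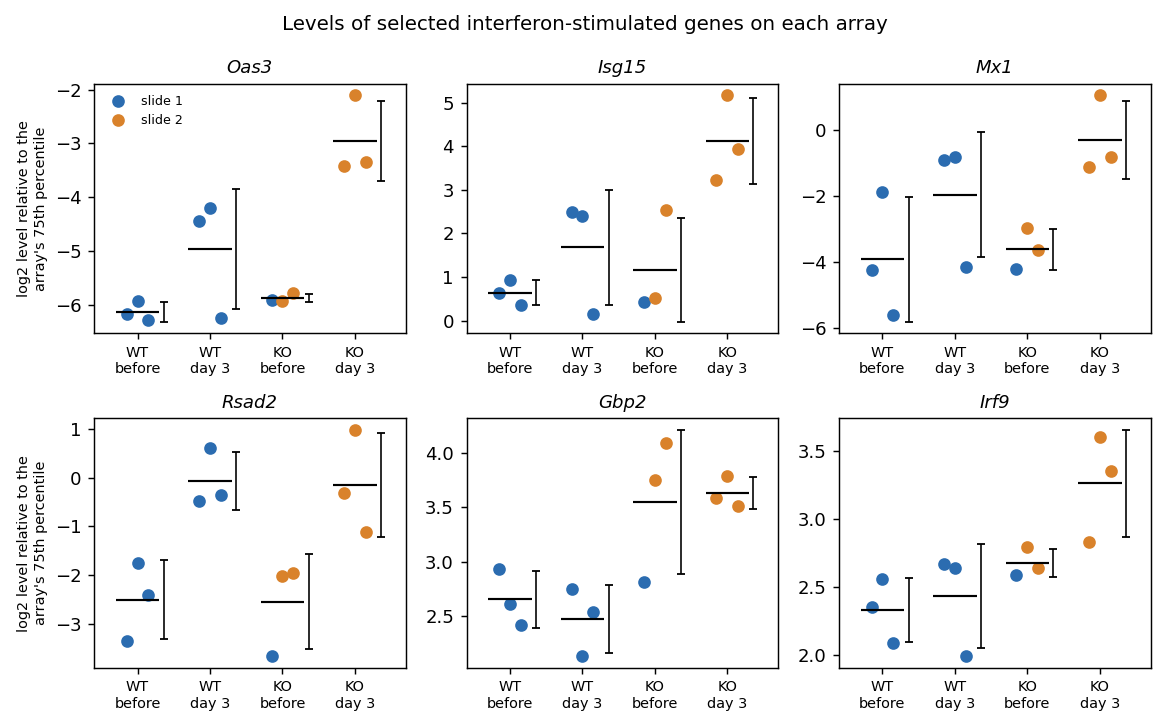
Log2 level, relative to the 75th percentile of the array, of 6 genes on each of the 12 arrays, coloured by slide, with the group mean (line) and SD (bar, n = 3); KO is the label smSocs3-KO. In Oas3, Isg15 and Mx1 WT array 4 at day 3 lies with the unchallenged arrays, in Rsad2 it does not, and in Gbp2 the 5 arrays of slide 2 lie between 3.51 and 4.09, above the 7 arrays of slide 1.

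ISG15 is a small ubiquitin-like protein joined to other proteins during the interferon response, and USP18 removes it and also restrains the type I interferon receptor. The probe of Isg15 lies at chr4:155573649-155573708 on the minus strand (mm9). Isg15 stood at 0.63, 0.93 and 0.35 in WT before challenge and at 2.50, 2.39 and 0.16 at day 3. The smSocs3-KO arrays stood at 0.43, 0.52 and 2.53 before challenge and at 3.23, 5.18 and 3.93 at day 3. The smSocs3-KO arrays at day 3 were above all others, and array 4 before challenge was already at the level of the high WT arrays at day 3. The log2 difference was 1.05 (adjusted p = 0.379) in WT and 2.95 (SE 0.73, 95% confidence interval 1.34 to 4.56, adjusted p = 0.0598) in smSocs3-KO, by limma. At day 3 the genotype difference was 2.43 (SE 0.73, adjusted p = 0.149), and 1.33 with slide as a term (adjusted p = 0.618). A second Isg15 probe gave 0.94 in WT and 3.45 in smSocs3-KO. Usp18 differed by 1.09 in WT and 1.8 in smSocs3-KO (adjusted p = 0.32 and 0.15).

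The IFIT proteins bind viral RNA that lacks the cell's own cap marks, and the 3 genes split. Ifit1 and Ifit3 differed by 0.79 and 0.95 in WT and by 2.07 and 2.24 in smSocs3-KO, where neither overlapped between the groups. Their adjusted p-values in smSocs3-KO were 0.106 and 0.0897 (limma). Ifit2, their neighbour, stood between -0.52 and -0.36 in WT before challenge and between -0.23 and -0.06 at day 3. Under the smSocs3-KO label it stood at -0.15, -0.36 and -0.65 before challenge and at -0.36, 0.72 and -0.81 at day 3. Its difference was 0.27 in WT, without overlap, and 0.23 in smSocs3-KO, with overlap, and its genotype difference at day 3 was 0 with an interval of -0.69 to 0.7. Ifit2 has 1 probe on this array, so no second probe bears on the split.

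Among the nucleic acid sensors, Ddx58 (RIG-I) and Ifih1 (MDA5) detect viral RNA in the cytosol, Dhx58 (LGP2) modulates them, and Zbp1 senses left-handed nucleic acid and can start cell death. Zbp1 stood at -2.29, -1.52 and -3.57 in WT before challenge and at 0.48, -0.14 and -2.57 at day 3. In smSocs3-KO it stood at -1.24, -0.68 and 0.11 before challenge and at 0.56, 1.12 and 1.69 at day 3. The smSocs3-KO arrays were above the WT arrays both before challenge and at day 3, by 1.86 (SE 0.75, adjusted p = 1) and 1.87 (SE 0.75, adjusted p = 0.256) by limma. With slide as a term these differences were 1.22 and 0.91. The challenge responses of Zbp1 were close in size, 1.72 in WT and 1.73 in smSocs3-KO. A dimmer second probe of Zbp1 gave 0.79 in WT and 3.64 in smSocs3-KO, so the 2 probes disagree on this point. Ddx58 differed by 0.75 in WT and 0.92 in smSocs3-KO, in both cases without overlap, with adjusted p-values of 0.128 and 0.0986. A dimmer second probe of Ddx58 gave smaller differences, 0.19 in WT and 0.39 in smSocs3-KO (SE 0.3 for each). Dhx58 differed by 0.83 and 1.62, and Ifih1 by 0.4 and 0.73.

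The 3 interferon regulatory factors of the set are transcription factors: IRF9 is a part of the complex that type I interferon activates, IRF7 drives the production of type I interferon, and IRF1 acts mainly downstream of type II interferon. Irf9 stood at 2.35, 2.56 and 2.09 in WT before challenge and 2.67, 2.64 and 1.99 at day 3. The smSocs3-KO arrays stood at 2.59, 2.79 and 2.64 before challenge and 2.83, 3.60 and 3.35 at day 3. It was higher on every smSocs3-KO array than on any WT array at the same time point. Its genotype difference was 0.34 (adjusted p = 1) before challenge and 0.83 (SE 0.24, adjusted p = 0.14) at day 3 by limma, and with slide as a term 0.25 and 0.7.

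Irf7 varied widely, from -3.71 to -1.82 in WT before challenge, from -3.12 to -1.46 in WT at day 3, from -2.62 to -1.17 in smSocs3-KO before challenge and from -1.98 to 0.44 in smSocs3-KO at day 3. Every pair of groups compared overlapped. Its difference was 0.72 in WT and 1.39 in smSocs3-KO (adjusted p = 0.534 and 0.249). Irf1 was nearly flat. It lay between 2.62 and 2.94 on the 6 WT arrays, at 2.49, 3.32 and 3.27 in smSocs3-KO before challenge and at 3.30, 3.35 and 3.04 at day 3. The challenge difference was -0.12 (interval -0.59 to 0.36) in WT and 0.21 (interval -0.27 to 0.68) in smSocs3-KO. The 5 Irf1 values on slide 2, 3.04 and above, were all higher than the 7 on slide 1.

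The interferon-induced GTPases, which attack the vacuoles of intracellular pathogens and are known mainly as targets of type II interferon, included Gbp2, which separated by slide. Gbp2 stood at 2.93, 2.61 and 2.42 in WT before challenge and at 2.75, 2.13 and 2.54 at day 3. On the smSocs3-KO arrays it stood at 2.81, 3.75 and 4.09 before challenge and at 3.59, 3.79 and 3.51 at day 3. The smSocs3-KO array on slide 1, at 2.81, lay with the WT arrays. The challenge difference was -0.18 in WT and 0.08 in smSocs3-KO. The genotype difference was 0.9 (SE 0.3, unadjusted p = 0.0127, adjusted p = 0.97) before challenge and 1.16 (SE 0.3, adjusted p = 0.102) at day 3 by limma, and 0.16 and 0.05 with slide as a term. Genotype and slide cannot be told apart at day 3 for this gene.

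Irgm1 differed by 0.71 in WT and 1.04 in smSocs3-KO (adjusted p = 0.19 and 0.0986), the latter without overlap. Igtp differed by 0.06 and 1.04, Iigp1 by 0.09 and 0.89, and Gbp3 by 0.39 and 0.58. None of these passed the adjusted test. A second, dimmer probe of Iigp1 gave 0.32 in WT and 1.76 in smSocs3-KO, the same direction as the first.

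The antigen-processing genes, of which Psmb8, Psmb9 and Psmb10 encode the catalytic subunits of the immunoproteasome and Tap1 a subunit of the peptide transporter, had the smallest median challenge response of the 9 role groups in smSocs3-KO, 0.4. The differences were 0.09 to 0.29 in WT and 0.13 to 0.52 in smSocs3-KO. Psmb9 lay between 0.98 and 1.33 in WT before challenge and at 1.71, 1.3 and 0.83 at day 3. In smSocs3-KO it lay at 1.19, 1.87 and 1.99 before challenge and at 1.79, 2.05 and 1.61 at day 3, so the groups overlapped. Psmb10 had steady values in WT before challenge, from 3.83 to 3.89, and in smSocs3-KO at day 3, from 4.43 to 4.56. It ran from 3.76 on array 4 to 4.41 in WT at day 3 and from 4.04 to 4.38 in smSocs3-KO before challenge. Its difference was 0.29 in both genotypes (adjusted p = 0.324 in WT and 0.339 in smSocs3-KO, limma). Its smSocs3-KO arrays lay above its WT arrays at both times, by 0.34 and 0.35, and by 0.18 and 0.11 with slide as a term.

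The remaining genes were Ifi44 and Ifi35, whose functions are less well defined, Bst2, which encodes tetherin and holds budding virus on the cell, Xaf1, a proapoptotic protein, and Parp9 and Parp14, which act on ADP-ribose marks. Ifi44 stood at -3.51, -3.70 and -5.39 in WT before challenge and at -1.92, -1.44 and -4.28 at day 3. Under the smSocs3-KO label it stood at -2.85, -2.11 and -1.08 before challenge and at -2.46, -0.35 and -1.73 at day 3. It was well above background on 2 of 3 arrays in each WT group and on all smSocs3-KO arrays. All unchallenged smSocs3-KO arrays were above all unchallenged WT arrays, by 2.19 as scaled here and by 0.85 after normexp, an uncertain size since part of the WT signal was at background. Ifi44 was one of 3 genes whose smSocs3-KO response was smaller than the WT response, 0.5 against 1.65, with Ifit2 and Rsad2, and that difference was -1.15 with an interval of -3.7 to 1.41.

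Parp9 and Parp14 are neighbours on chromosome 16. Parp9 lay between 0.79 and 1.09 in WT before challenge and between 0.95 and 1.23 at day 3. In smSocs3-KO it lay at 0.73, 1.16 and 1 before challenge and at 1.39, 2.04 and 1.87 at day 3, above every other array. Its response was 0.2 in WT (adjusted p = 0.548) and 0.8 in smSocs3-KO (SE 0.2, adjusted p = 0.0598). Parp14 showed the same order, with 0.05 in WT and 0.8 in smSocs3-KO (SE 0.26, adjusted p = 0.111), and all 3 smSocs3-KO arrays at day 3, from 2.07 to 2.98, above every other array. Bst2 differed by 0.87 in WT and 1.54 in smSocs3-KO (adjusted p = 0.268 and 0.0986). Ifi35 differed by 0.12 and 0.32. Xaf1 differed by 0.08 and 0.5 on its brighter probe and by 3.26 and 2.55 on its dimmer one, so the 2 probes disagree in size.

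The genes upstream of the set were read from a list of the pathway. Of 7 interferon genes, Ifna1 and Il28b were kept and neither passed the adjusted test. Ifna1 had differences of 0.04 in WT and -0.29 in smSocs3-KO, and Il28b had -0.23 and -0.6. The probes of Ifna2, Ifna4, Ifnb1, Ifne and Ifng were not well above background on all arrays of any group. None of the 6 interferon receptor genes passed the adjusted test in any comparison. Among 5 signal transducers, only Stat2, a partner of IRF9, passed it, beside 1.71% of all genes passing upward in the smSocs3-KO response. Stat2 rose there by 0.96 (SE 0.21, adjusted p = 0.041, limma), and had 0.28 in WT. Of the inhibitors, Socs1 had -0.24 and 0.15. Socs3 had 1.26 in WT (adjusted p = 0.163) and 2.3 in smSocs3-KO (adjusted p = 0.0521).

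Among 12 measured genes that lead to interferon production, only Irf8, a transcription factor of myeloid and B cells, passed the adjusted test upward. It rose in smSocs3-KO by 1.49 (SE 0.28, adjusted p = 0.032, limma), beside 1.71% of all genes passing upward. At day 3 it was higher in smSocs3-KO than in WT by 1.37 (adjusted p = 0.0489, limma), beside 0.958% of all genes. Of 34 further interferon-induced genes, 3 rose in smSocs3-KO, beside 1.71% of all genes, and none passed the adjusted test upward in WT, beside 3.58%. Samhd1, which depletes the nucleotides that viruses need, rose by 1.31 (SE 0.16, adjusted p = 0.00849). Ifi204, a DNA sensor, rose by 2.31 (SE 0.35, adjusted p = 0.0173), and Ifitm3, which blocks the entry of virus, rose by 1.34 (SE 0.29, adjusted p = 0.0414). Samhd1, Ifi204 and Ifitm1 were also higher in smSocs3-KO than in WT at day 3, by 1.07, 1.95 and 3.00, beside 0.958% of all genes passing upward. Ifitm1 varied widely there, at 3.36, 0.5 and 1.49 on the smSocs3-KO arrays against -1.25 to -1.16 on the WT arrays. Genotype and slide coincided at day 3, so they cannot be told apart for these genes or for Irf8. The chemokine gene Cxcl10 was well above background on all 3 arrays only in smSocs3-KO at day 3, and on 1 and 2 arrays in WT before challenge and at day 3 and 2 in smSocs3-KO before challenge. It stood at 0.34 and 0.48 on WT arrays 1 and 3 at day 3 and at -5.74 on array 4, and at -1.43, 1.42 and -0.56 in smSocs3-KO at day 3. Over the 34 genes the median was 0.23 in WT and 0.5 in smSocs3-KO, with 20 and 26 of them above 0, beside 48.4% and 44.6% of all genes.

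The order of the set was also read under other scalings. When each array was scaled by the probes that were well above background on all arrays, the median of all genes moved from -0.02 to -0.18 in the WT response and from -0.06 to -0.17 in the smSocs3-KO response, and 24 and 34 of the 35 genes were above 0. Both scalings take 1 constant off each array, so the median of the set relative to that of all genes, 0.45 in the WT response and 1.03 in the smSocs3-KO response, is the same in both by construction. It was 0.34 and 0.83 after normexp with quantile normalization and 0.45 and 0.93 after quantile normalization alone. Of the genes near 0 in WT, Gbp2 (-0.38 to -0.01) and Irf1 (-0.31 to -0.06) were below 0 under all 23 alternatives. Parp14 ran from -0.1 to 0.22, and Ifi35, Igtp, Iigp1, Irf9, Mx2, Oasl2, Psmb9, Tap1 and Xaf1 also changed sign under at least 1 alternative.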

How the data were processed

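Total RNA from aorta was labelled with 1 dye and hybridised to 12 Agilent arrays of 8 per slide. The authors deposited the scanner output, which holds for each spot a processed intensity, background-subtracted by Feature Extraction (version 10.7.1.1 in the file headers, 9.5.1.1 in the submitters' processing notes), and a table of quantile-normalized intensity values for the same arrays, used here as an alternative. Probe positions are on build mm9, per the file headers.

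Control and outlier spots were left out, replicate spots were averaged, and each array's 75th percentile was taken off log2 of the signal. A probe entered if every array of 1 group or more had it well above background (13 SD), as 32275 of 55681 did, and the brightest probe stood for its gene, giving 22755 genes. Means of the 4 groups were compared in limma 3.58.1 (R 4.3.3), and p-values were adjusted by Benjamini-Hochberg over all genes. The number of arrays limits the precision. The code was tested on simulated data.

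The members and lists were chosen with earlier results of these data known. Genes named are those with the 3 largest and 3 smallest differences in each comparison, those called, and the transcription factors, with others chosen after their values were seen. The alternatives were other scalings, background corrections, filters, probe choices, moderation, slide and replicate blocks, and leaving out each array. Sequences are from RefSeq tables of GRCm38.p6, in which 26 of the 35 genes had a promoter entry, and all 35 symbols matched a RefSeq symbol.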

Additional observations from a re-analysis of the deposited data

How the results depend on the processing

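Over 25 settings none of the 116 medians of the set recomputed fell below 0. The median of the genotype difference before challenge did fall from 0.37 to 0 with slide as a block, where 18 of the 35 genes were above 0. With the group means as reported, 0, 1, 0, 0 and 0 genes of the set were called in the WT response, the smSocs3-KO response, the 2 genotype differences (before challenge, then day 3) and the interaction. After normexp background correction with quantile normalization, 1 gene was called in the WT response and 0 passed the threshold of the methods, 2 were called and 3 passed it in the smSocs3-KO response, and 1 passed it in the genotype difference at day 3. With probes well above background on all 12 arrays, 1 was called in WT, 0 in smSocs3-KO, where Oas3 was no longer tested, and 1 passed the threshold of the methods at day 3 between genotypes. With trended, robust moderation 1 and 3 were called in WT and smSocs3-KO. With only the arrays of the groups compared, 2 were called in smSocs3-KO and 0 passed the threshold of the methods at day 3 between genotypes. With slide as a block, 1 was called in WT and 0 in smSocs3-KO, the threshold of the methods was passed by 1 in smSocs3-KO and 0 at day 3 between genotypes, and the median at day 3 was 0.43. On slide 2 alone, 0 were called and 3 passed the threshold in smSocs3-KO. The cause of these moves was not tested.

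Leaving out 1 array at a time, the calls ran from 0 to 9 in the WT response, 0 to 11 in the smSocs3-KO response and 0 to 1 in the genotype difference at day 3, and stayed at 0 in the other comparisons. The counts past the threshold of the methods ran from 0 to 5, 1 to 9, 0 to 1 before challenge and 0 to 4 at day 3. The medians ran from 0.24 to 0.92, 0.7 to 1.24, 0.22 to 0.62, 0.61 to 1.28 and, for the interaction, 0.14 to 0.79.

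Groups share some replicate numbers in the labels, which do not say what a number marks. Deviations from the group means correlated with r from -0.403 to 0.464 in 11 same-numbered pairs (median 0.073) and from -0.435 to 0.478 in 43 other pairs (median -0.006), so the samples were not treated as paired. With the replicate number as a block, 0 genes were called and 2 passed the threshold of the methods in smSocs3-KO, and 0 passed it at day 3 between genotypes; the adjusted p of Oas3 was 0.365 (limma).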
